A study of Homo sapiens with 7 samples.

Results

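The genes described here are 42 neighbours in band 14q24 on the long arm of human chromosome 14, from DNAL1 to VIPAS39, and include FOS, JDP2, BATF, PGF and TGFB3. They were selected because, in earlier results from these same arrays, many of them had a higher signal in those sublines of PC-3 that had not come by way of TEM4-18 than in TEM4-18 itself. Each gene was read from its brightest probe set, averaged over the 7 arrays. Of the 42 genes, 41 had a probe set that names them alone, and 38 of these also passed the filter on low signal, out of 13640 genes tested in the whole series. FOS, BATF and TMEM63C lay under that filter, and ZNF410 was measured only by probe sets that also name another gene, so no level of its own is given.

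Expression was measured on 7 arrays of PC-3, an established human prostate cancer line, in forms selected in culture or by growth in mice. TEM4-18, with 2 arrays, had crossed a layer of lung microvascular endothelium in culture. The PC-3-descended group has 3 sublines recovered from injected mice: GS672.Ug, from urogenital tissue after PC-3 was injected, and GS689.Li and GS694.LAd, from the liver and the left adrenal after injection of JD549.Ki, itself a kidney isolate of PC-3. The TEM4-18-derived group has 2 sublines, JD1203.Lu from the lung and GS683.LALN from a left axillary lymph node, recovered after TEM4-18 was injected. All the lines go back to PC-3 from ATCC, carry luciferase, were grown in DMEM/F12 with 10% fetal bovine serum and received no treatment. Each mouse-passaged subline is a line recovered from 1 organ site with 1 array, with TEM4-18 as the reference. Neither JD549.Ki nor the parental PC-3 line was analysed here.

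The labels conflict for 4 of the lines. JD1203.Lu carries JD549.Ki as its source name, while its description gives TEM4-18 as parent. GS683.LALN is placed in the left axillary lymph node by its description and in the lung by the design text, GS694.LAd is said to be termed JD549.Ki, and the corresponding name of GS689.Li is missing. The medians, the counts against the TEM4-18 lineage and the test of the TEM4-18-derived sublines are therefore also given without JD1203.Lu. The p-values below measure the spread between these samples only, pooled over the TEM4-18 duplicates and the different sublines within the other groups. Nothing states whether the duplicates of TEM4-18 were separate cultures, so their part of that spread may be technical. In such bulk samples, fewer cells of a kind and less RNA per cell cannot be told apart.

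Genes that lie side by side on a chromosome need share neither function nor regulation. They do share a stretch of chromatin and of DNA, and PC-3 is a line with many rearranged chromosomes. Neither chromatin nor DNA was measured here. The neighbourhood from DNAL1 to VIPAS39 holds secreted factors, 3 transcription factors of the bZIP family, mitochondrial enzymes, transporters and proteins of cilia.

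The trimmed mean signal was 1500 on every array, as scaling to a common level would give. It therefore cannot show that the arrays were alike. The array medians ran from 239 to 297. All 10 markers of the PC-3 line passed the filter. Of 10 endothelial markers, CDH5, VWF, TEK, TIE1, EMCN, CLDN5 and ERG lay under the filter in the mean over the arrays, and 3 passed it (PECAM1, KDR and ROBO4). The summed endothelial marker signal was 2637 to 2661 in TEM4-18, 9212 to 10240 in the PC-3-descended sublines and 2971 to 4404 in the TEM4-18-derived ones. No defining marker was listed at 0, and the part of this sum in the values below was not tested. The summed leukocyte marker signal was 1286 to 1670 in TEM4-18, 1617 to 1798 in the PC-3-descended sublines and 1803 to 2157 in the TEM4-18-derived ones, with 4 of the 7 markers that had a probe set past the filter. The summed fibroblast marker signal, with 6 of 10 markers past the filter, was 18300 to 19930, 14360 to 23660 and 5030 to 33050 in the same order of groups. The summed signal of prostate luminal markers, with 5 of the 6 that had a probe set past the filter, was 13490 to 15080, 14560 to 16230 and 8602 to 10100. The part of these sums was not tested either. Single markers made up much of some sums. Over all arrays COL1A1 ran from 3071 to 30750 and PDGFRA from 41.1 to 6026, with every other fibroblast marker at or under 614. HOXB13 ran from 5881 to 12990 among the luminal markers, and KDR from 318 to 6380 among the endothelial ones.

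The 38 tested neighbours were mostly higher in all 3 PC-3-descended sublines, by less than 2-fold for the typical gene. Their median log2 difference from TEM4-18 was 0.79, or 1.73-fold, where the median over all 13640 genes was 0.05. Differences ran from -0.03 to 1.86, and 11 of the 38 reached 2-fold. Of the 38, 36 were above 0, as were 55.4% of all genes. All 3 sublines lay above both TEM4-18 arrays for 32 of the 38, and 23.8% of all genes tested did so. For 28 of the 38 the 3 sublines also lay above both TEM4-18-derived arrays, as did 11.3% of all genes, and without JD1203.Lu these were 31 of the 38 and 16.5%. Of all genes, 2.38% passed limma as higher and 1% as lower in this contrast, and 12 and 0 of the neighbours were among them. Since the neighbours were selected on this contrast, these counts and the values below are descriptions, and nothing is read from them as a test. The deposited values are linear signals, an offset was added before taking log2, and folds are on that offset scale, which understates the change of dim genes. Centring each array on its median shifted the median of all genes by -0.19, to -0.14, and that of the neighbours to 0.60, so that the gap between these medians was 0.74 either way. Under that centring 34 of the neighbours remained above 0, and over all genes the share of calls that were higher went from 70.3% (324 higher, 137 lower) to 40.6% (216 higher, 316 lower).

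**Figure D1:**
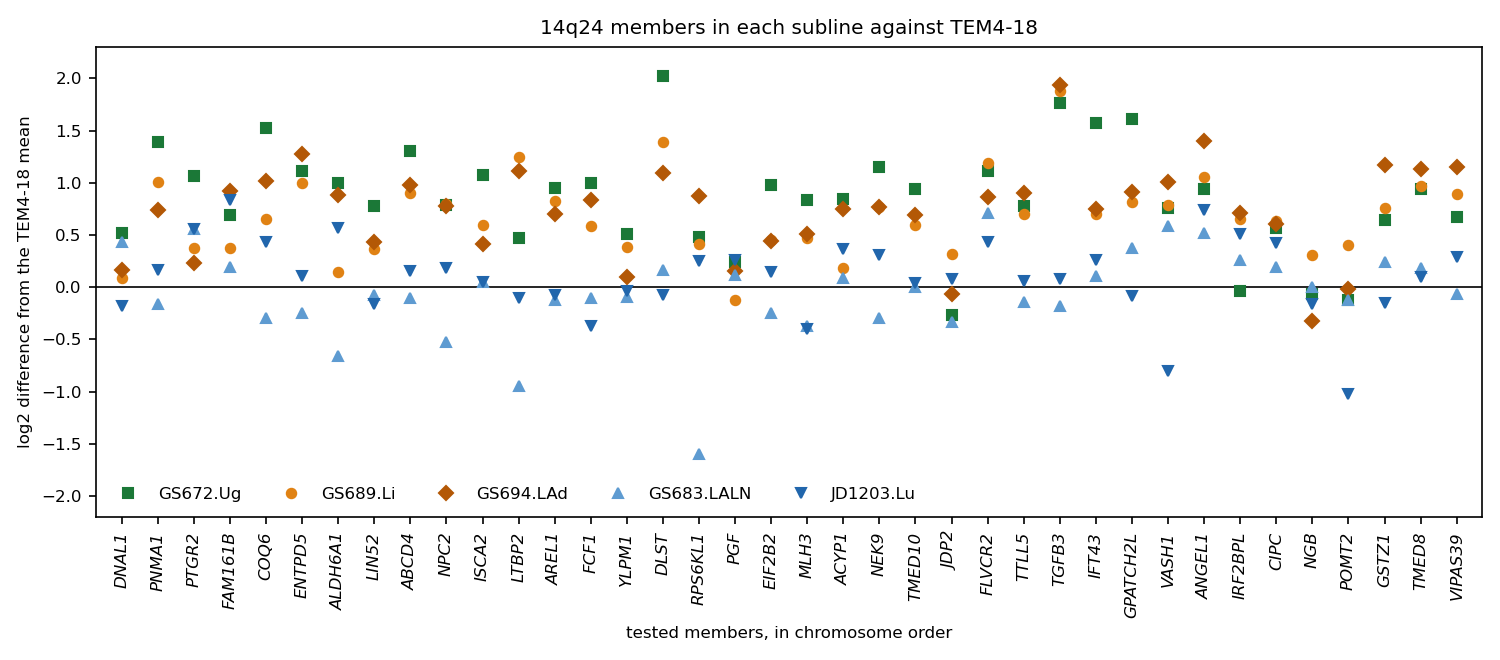
The log2 difference of each tested neighbour from the mean of the TEM4-18 duplicates (vertical axis), with the 38 genes in chromosome order along the horizontal axis and 1 symbol for each of the 5 sublines. The 3 PC-3-descended sublines (green, orange and brown) have medians of 0.89, 0.66 and 0.77, and the 2 TEM4-18-derived sublines (blue triangles) have medians of -0.07 and 0.10.

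The sublines differed in how far the neighbours lay above TEM4-18. The median log2 difference was 0.89 in GS672.Ug, 0.77 in GS694.LAd and 0.66 in GS689.Li. It was -0.07 in GS683.LALN and 0.10 in JD1203.Lu. At least 2-fold above the TEM4-18 mean and above both duplicates were 12 of the 38 neighbours in GS672.Ug (6.11% of all genes), 7 in GS689.Li (7.73% of all genes) and 10 in GS694.LAd (7.9% of all genes). The same count was 0 in GS683.LALN (2.53% of all genes) and 0 in JD1203.Lu (4.61% of all genes). The duplicates of TEM4-18 were 2-fold apart for none of the 38 neighbours and for 4.2% of all genes. With 1 array per subline, these counts have no replicate check. The neighbours were also spread among themselves, with a standard deviation of their log2 differences of 0.51 in GS672.Ug, 0.45 in GS694.LAd and 0.39 in GS689.Li.

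The secreted and matrix proteins held the largest difference of all. TGFB3, a ligand of the TGF-beta family, had signals of 823 and 756 in TEM4-18, 2790 in GS672.Ug, 3023 in GS689.Li, 3148 in GS694.LAd, 693 in GS683.LALN and 837 in JD1203.Lu. The 3 PC-3-descended sublines were close to each other and far above the other 4 arrays, which overlapped. The log2 difference from TEM4-18 was 1.86 ± 0.18 (limma standard error, n = 3 and n = 2), or 3.62-fold. RefSeq gives TGFB3 a pair of annotated starts on the minus strand. The 250 bases before the upstream start (chr14:75983012-75983261, RefSeq, GRCh38.p14) are shown because TGFB3 is the neighbour of largest difference. In this and the sequences below, capitals mark any of 5 motifs searched on both strands: TGACG, the core of the cAMP response element, TGANTCA, which covers the AP-1 site, CCAAT, which NF-Y binds, TATAAA, the TATA box, and GGGCGG, the GC box. None was found in the letters of this stretch, which says nothing about the factors that bind them. The window of the downstream start does hold TGACG and TATAAA and is not printed.
TGFB3: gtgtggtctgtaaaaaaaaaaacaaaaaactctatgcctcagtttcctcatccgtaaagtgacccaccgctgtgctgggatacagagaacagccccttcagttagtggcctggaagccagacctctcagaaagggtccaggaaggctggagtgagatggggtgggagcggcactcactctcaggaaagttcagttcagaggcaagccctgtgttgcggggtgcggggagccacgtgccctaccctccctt

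LTBP2, a microfibril protein related to the latent TGF-beta binding proteins, had signals of 824 and 653 in TEM4-18, 1038 in GS672.Ug, 1807 in GS689.Li, 1642 in GS694.LAd, 359 in GS683.LALN and 679 in JD1203.Lu. GS672.Ug lay only a little above the duplicates, the JD549.Ki-derived sublines were highest, and GS683.LALN was lowest of all. NPC2, which carries cholesterol out of lysosomes, had signals of 9746 and 9534 in TEM4-18, 16700 in GS672.Ug, 16770 in GS689.Li, 16520 in GS694.LAd, 6681 in GS683.LALN and 10920 in JD1203.Lu. The 3 PC-3-descended values were nearly equal and above the other 4. VASH1, a secreted vasohibin that limits vessel growth and removes tyrosine from tubulin, had signals of 280 and 250 in TEM4-18, 478, 492 and 578 in GS672.Ug, GS689.Li and GS694.LAd, 421 in GS683.LALN and 132 in JD1203.Lu. The PC-3-descended sublines were above the rest, but the 2 TEM4-18-derived sublines stood on either side of TEM4-18. The log2 differences from TEM4-18 were 0.94 ± 0.32 for LTBP2, 0.79 ± 0.19 for NPC2 and 0.85 ± 0.41 for VASH1 (limma standard errors).

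PGF, which encodes placental growth factor, a VEGF family ligand, depended on the probe set. Its brightest probe set, of a design that can also bind other transcripts, had signals of 6988 and 7923 in TEM4-18, 8810 in GS672.Ug, 6834 in GS689.Li, 8307 in GS694.LAd, 8100 in GS683.LALN and 8916 in JD1203.Lu. These values overlapped between all groups, and the log2 difference from TEM4-18 was 0.09 ± 0.15, turning to -0.10 with median centring. The other PGF probe set had signals of 180 and 95.6 in TEM4-18, 371, 426 and 660 in GS672.Ug, GS689.Li and GS694.LAd, 92.7 in GS683.LALN and 131 in JD1203.Lu. On that probe set the 3 PC-3-descended sublines lay above all the other arrays, with a log2 difference of 1.53.

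**Figure D2:**
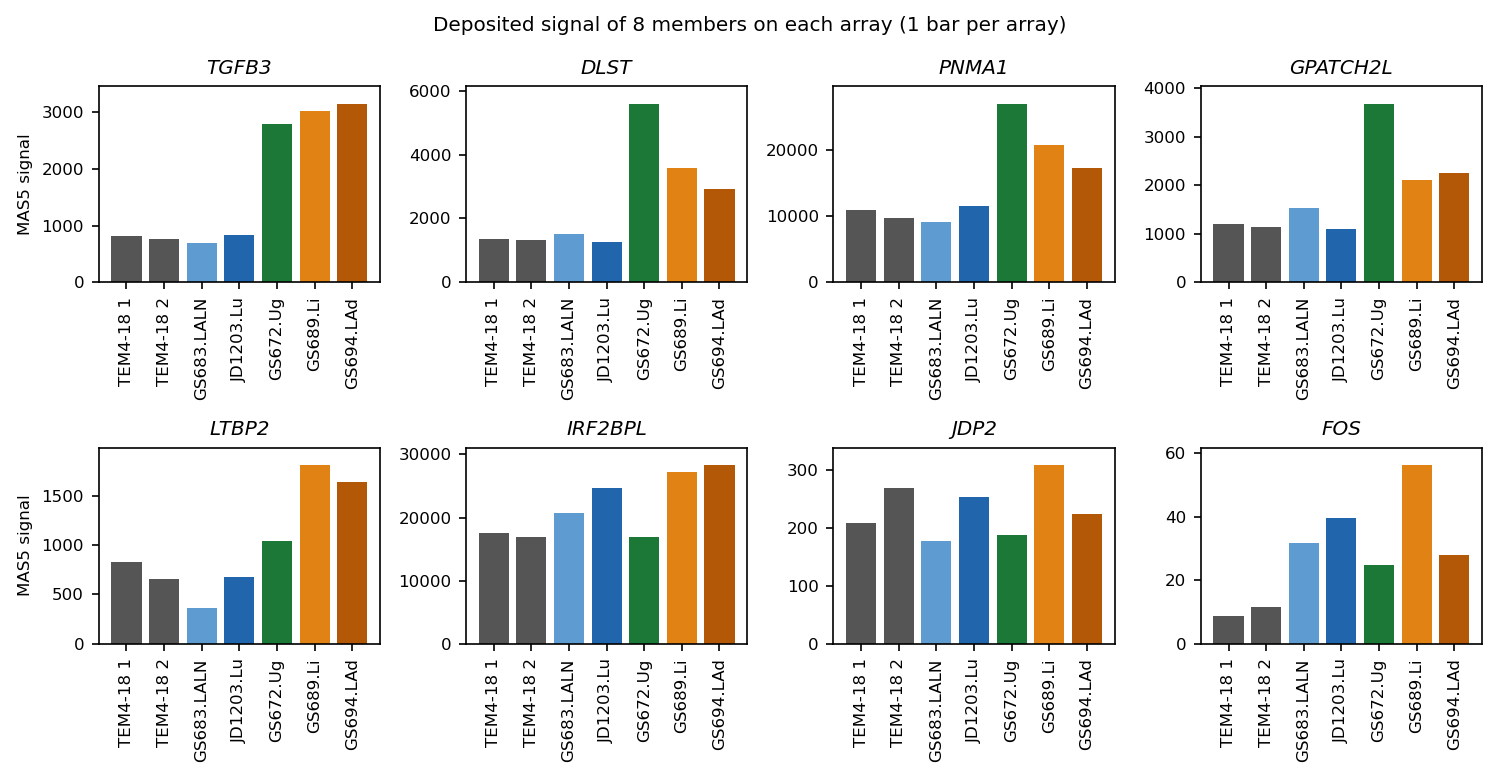
The deposited MAS5 signal (vertical axis, linear and starting at 0, with its own scale in each panel) of 8 neighbours on each of the 7 arrays, 1 bar per array. TGFB3, DLST, PNMA1, GPATCH2L and LTBP2 are higher in GS672.Ug, GS689.Li and GS694.LAd than in the other 4 arrays, IRF2BPL is not higher in GS672.Ug, and JDP2 and FOS show no such order, FOS with no signal above 56.1.

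The bZIP transcription factors, the best-known genes of this neighbourhood, were dim, and only JDP2 passed the filter. FOS, the early response partner of JUN in AP-1, was under the filter, with signals of 8.64 and 11.7 in TEM4-18, 24.9 in GS672.Ug, 56.1 in GS689.Li, 27.98 in GS694.LAd, 31.8 in GS683.LALN and 39.5 in JD1203.Lu. Both duplicates were lowest and the sublines of the 2 lineages overlapped, all of them far under the filter level of 160.7. JDP2, a repressor that pairs with JUN proteins, had signals of 208 and 268 in TEM4-18, 188, 307 and 223 in GS672.Ug, GS689.Li and GS694.LAd, 178 in GS683.LALN and 252 in JD1203.Lu. All groups overlapped, and the log2 difference of -0.004 ± 0.38 turned sign with the alternatives tried. BATF, a bZIP factor of lymphocytes, was under the filter, with signals of 71.5 and 129 in TEM4-18, 38.9, 208 and 203 in GS672.Ug, GS689.Li and GS694.LAd, 99.1 in GS683.LALN and 69.6 in JD1203.Lu. The JD549.Ki-derived sublines were highest and GS672.Ug lowest.

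The FOS promoter is shown because it is a textbook promoter in which a cAMP response element lies upstream of a TATA box. Both motifs were found, with a GC box, in the 250 bases before the start on the plus strand (chr14:75278578-75278827, RefSeq, GRCh38.p14), although the FOS signal was low on every array.
FOS: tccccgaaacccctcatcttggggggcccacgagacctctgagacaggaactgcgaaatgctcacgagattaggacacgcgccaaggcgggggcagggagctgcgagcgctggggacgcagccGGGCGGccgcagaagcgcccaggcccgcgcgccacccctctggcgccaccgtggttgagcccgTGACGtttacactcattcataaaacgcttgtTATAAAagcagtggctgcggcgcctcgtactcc

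The mitochondrial and metabolic enzymes were 8 genes, all tested, with a median log2 difference of 0.78 and a range of 0.56 to 1.51. In 7 of the 8 the PC-3-descended arrays lay above both TEM4-18 arrays, as in 23.8% of all genes. DLST, the succinyltransferase of the oxoglutarate dehydrogenase complex in the citric acid cycle, had signals of 1363 and 1311 in TEM4-18, 5592 in GS672.Ug, 3577 in GS689.Li, 2916 in GS694.LAd, 1504 in GS683.LALN and 1271 in JD1203.Lu. GS672.Ug stood well above the JD549.Ki-derived sublines, and these in turn above the 4 arrays of the TEM4-18 lineage. The log2 difference from TEM4-18 was 1.51 ± 0.26, or 2.84-fold. The 250 bases before its start (chr14:74881666-74881915, plus strand, RefSeq, GRCh38.p14) are shown as those of a mitochondrial gene with a large difference. They hold GC boxes in both orientations and none of the other 4 motifs.
DLST: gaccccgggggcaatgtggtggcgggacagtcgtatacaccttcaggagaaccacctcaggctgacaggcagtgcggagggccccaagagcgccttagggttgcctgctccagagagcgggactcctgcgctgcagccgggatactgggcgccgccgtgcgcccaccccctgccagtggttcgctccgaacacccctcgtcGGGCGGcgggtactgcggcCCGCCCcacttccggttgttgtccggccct

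COQ6, a monooxygenase of ubiquinone synthesis, had signals of 774 and 713 in TEM4-18, 2229, 1195 and 1555 in GS672.Ug, GS689.Li and GS694.LAd, 595 in GS683.LALN and 1023 in JD1203.Lu. The 3 PC-3-descended values lay above the other 4, though JD1203.Lu came close to GS689.Li. ENTPD5, a nucleotide phosphatase of the endoplasmic reticulum, had signals of 921 and 822 in TEM4-18, 1941, 1789 and 2177 in GS672.Ug, GS689.Li and GS694.LAd, 727 in GS683.LALN and 943 in JD1203.Lu. Its 3 PC-3-descended values lay well apart from the other 4. Their log2 differences from TEM4-18 were 1.07 ± 0.31 and 1.13 ± 0.20. ISCA2 (assembly of mitochondrial iron-sulfur clusters), GSTZ1 (tyrosine breakdown), ALDH6A1 (valine breakdown) and ACYP1 (an acylphosphatase) differed by 0.70, 0.86, 0.67 and 0.59. PTGR2, a prostaglandin reductase, differed by 0.56, but the duplicates of TEM4-18 read 515 and 323, and GS694.LAd, at 488, lay between them.

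Genes of membrane transport and the secretory pathway had the highest group median, 0.96 over the 6 of 7 that were tested. ABCD4, which moves vitamin B12 out of lysosomes, had signals of 836 and 883 in TEM4-18, 2199, 1641 and 1739 in GS672.Ug, GS689.Li and GS694.LAd, 796 in GS683.LALN and 965 in JD1203.Lu. FLVCR2, a membrane transporter, had signals of 405 and 433 in TEM4-18, 963, 1014 and 802 in GS672.Ug, GS689.Li and GS694.LAd, 713 in GS683.LALN and 582 in JD1203.Lu. In both genes the 3 PC-3-descended sublines were highest, and for FLVCR2 both TEM4-18-derived sublines also exceeded the duplicates. TMED8, which carries the GOLD domain of cargo receptors, had signals of 3767 and 4119 in TEM4-18, 7622, 7735 and 8680 in GS672.Ug, GS689.Li and GS694.LAd, 4479 in GS683.LALN and 4209 in JD1203.Lu. VIPAS39, a vesicle sorting protein and the last of the 42, had signals of 1527 and 1549 in TEM4-18, 2477, 2895 and 3479 in GS672.Ug, GS689.Li and GS694.LAd, 1471 in GS683.LALN and 1886 in JD1203.Lu. For both genes the 3 PC-3-descended values lay above the other 4 arrays. The log2 differences from TEM4-18 were 1.06 ± 0.21 for ABCD4, 1.06 ± 0.23 for FLVCR2, 1.01 ± 0.14 for TMED8 and 0.90 ± 0.20 for VIPAS39, and TMED10, a p24 cargo receptor, differed by 0.74 ± 0.13.

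POMT2, which starts O-mannosylation of dystroglycan, was an exception within that group. Its signals were 675 and 666 in TEM4-18, 613, 902 and 660 in GS672.Ug, GS689.Li and GS694.LAd, 613 in GS683.LALN and 306 in JD1203.Lu. Only GS689.Li exceeded the duplicates, and the log2 difference of 0.09 ± 0.31 turned to -0.11 with median centring. The other POMT2 probe set past the filter gave a difference of 0.41. Its signals were 614 and 397 in TEM4-18, 547, 703 and 789 in GS672.Ug, GS689.Li and GS694.LAd, 445.5 in GS683.LALN and 419 in JD1203.Lu. There both GS689.Li and GS694.LAd exceeded the duplicates. TMEM63C, a membrane channel protein under the filter, had signals of 52.2 and 45.5 in TEM4-18, 290, 97.0 and 248 in GS672.Ug, GS689.Li and GS694.LAd, 32.8 in GS683.LALN and 96.1 in JD1203.Lu. The PC-3-descended sublines were highest, with GS689.Li hardly above JD1203.Lu.

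The 5 genes of cilia and cytoskeleton had a median log2 difference of 0.79. DNAL1, a light chain of axonemal dynein and the first of the 42, had signals of 896 and 931 in TEM4-18, 1331, 971 and 1032 in GS672.Ug, GS689.Li and GS694.LAd, 1253 in GS683.LALN and 799 in JD1203.Lu. The PC-3-descended sublines were above TEM4-18 but straddled GS683.LALN, and the log2 difference was 0.26 ± 0.25. IFT43, a subunit of the intraflagellar transport complex A, had signals of 2024 and 2236 in TEM4-18, 6399, 3495 and 3596 in GS672.Ug, GS689.Li and GS694.LAd, 2298 in GS683.LALN and 2556 in JD1203.Lu. GS672.Ug was far above the JD549.Ki-derived sublines, which were above the rest. TTLL5, a tubulin polyglutamylase, FAM161B, a microtubule-binding protein, and NEK9, a mitotic kinase, differed from TEM4-18 by 0.79, 0.67 and 0.90.

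Nuclear genes had a median log2 difference of 0.60 over 7 tested. GPATCH2L, a G-patch protein, had signals of 1204 and 1137 in TEM4-18, 3677, 2097 and 2243 in GS672.Ug, GS689.Li and GS694.LAd, 1533 in GS683.LALN and 1103 in JD1203.Lu. IRF2BPL, a nuclear protein with a RING finger, had signals of 17630 and 16950 in TEM4-18, 16900, 27270 and 28280 in GS672.Ug, GS689.Li and GS694.LAd, 20760 in GS683.LALN and 24650 in JD1203.Lu. For GPATCH2L the PC-3-descended sublines were highest, while for IRF2BPL only the JD549.Ki-derived ones were, and GS672.Ug was just under both TEM4-18 arrays. The log2 differences from TEM4-18 were 1.11 ± 0.27 for GPATCH2L and 0.44 ± 0.21 for IRF2BPL. LIN52, a subunit of the MuvB complex, MLH3, a mismatch repair protein, FCF1, which processes ribosomal RNA, CIPC, a partner of the CLOCK protein, and YLPM1 differed by 0.52, 0.61, 0.81, 0.60 and 0.33.

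Of the remaining neighbours, PNMA1, an antigen of paraneoplastic disease, had signals of 10860 and 9652 in TEM4-18, 26910, 20630 and 17180 in GS672.Ug, GS689.Li and GS694.LAd, 9134 in GS683.LALN and 11480 in JD1203.Lu. ANGEL1, a relative of CCR4 deadenylases, had signals of 1168 and 826 in TEM4-18, 1936, 2098 and 2664 in GS672.Ug, GS689.Li and GS694.LAd, 1434 in GS683.LALN and 1671 in JD1203.Lu. The PC-3-descended sublines were highest for both, and for ANGEL1 the TEM4-18-derived sublines also lay above the duplicates. NGB, the neuronal globin, had signals of 135 and 215 in TEM4-18, 161, 224 and 128 in GS672.Ug, GS689.Li and GS694.LAd, 172 in GS683.LALN and 148 in JD1203.Lu, with all groups overlapping. The log2 differences from TEM4-18 were 1.05 ± 0.20 for PNMA1, 1.13 ± 0.22 for ANGEL1 and -0.03 ± 0.43 for NGB, the last turning sign with the alternatives tried. AREL1, a ubiquitin ligase, EIF2B2, a subunit of the initiation factor eIF2B, and RPS6KL1, a kinase-like protein, differed by 0.83, 0.62 and 0.59. IFT43, IRF2BPL and TMEM63C are given array by array because of their values, and the other genes by a rule on size, position or protein class.

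**Figure D3:**
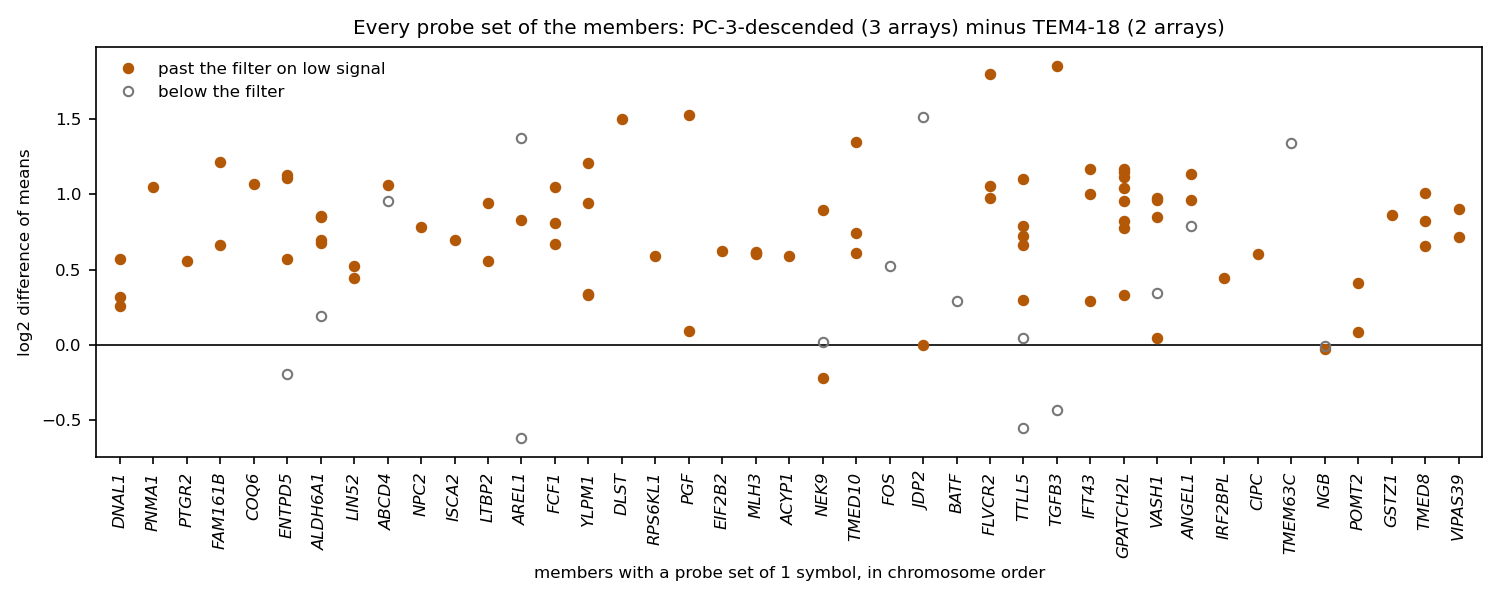
The log2 difference of PC-3-descended sublines from TEM4-18 (vertical axis) for all 98 probe sets that name 1 of the 41 measured neighbours alone, with the genes in chromosome order. Of the 82 probe sets past the filter (filled), 79 lie above 0, and the open circles are probe sets under the filter.

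The difference was also read on every probe set of these genes, including those that did not represent a gene above. The 41 measured neighbours had 98 probe sets, of which 82 passed the filter, with a median log2 difference of 0.79. Of these, 79 were higher in the PC-3-descended sublines and 3 were lower. Among the 21 genes with several probe sets past the filter, every probe set was higher for 20. NEK9 was the exception, with a second probe set at -0.22 whose signals of 342 and 220 in TEM4-18 overlapped the 341, 225 and 153 of GS672.Ug, GS689.Li and GS694.LAd. Probe sets of a gene were read on the same arrays from the same RNA, so they repeat the measurement but not the sample. JDP2 had another probe set under the filter, with signals of 21.9 and 19.95 in TEM4-18, 349, 189 and 31.1 in GS672.Ug, GS689.Li and GS694.LAd, 5.44 in GS683.LALN and 13.4 in JD1203.Lu.

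The TEM4-18-derived sublines were then compared with TEM4-18, a contrast that did not choose the genes but shares the TEM4-18 arrays with the one that did. The median log2 difference of the neighbours was 0.02, with 20 higher and 18 lower, and the median over all genes was 0.01. No neighbour passed limma at an adjusted p under 0.05, and the lowest adjusted p among them was 0.458. Over all genes 10 passed, or 0.0733%. At an unadjusted p under 0.05 there were 2 neighbours, FLVCR2 (0.57 ± 0.25) and ANGEL1 (0.63 ± 0.24), both higher, against 9.72% of all genes. Differences of single neighbours ran from -0.67 to 0.63. Without JD1203.Lu, whose labels conflict, the median was -0.07, which is that of GS683.LALN alone, with 18 neighbours higher and 20 lower. With that lone array assumed to vary like the other groups, no neighbour passed limma, where 40 genes did, and 4 had an unadjusted p under 0.05 (NPC2, LTBP2, RPS6KL1 and FLVCR2) against 10.8% of all genes. Without GS683.LALN it was 0.10, that of JD1203.Lu.

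Set directly against the TEM4-18-derived sublines, the PC-3-descended sublines had a median log2 difference of 0.80 over the neighbours. Of the 38, 37 were above 0, as were 55.1% of all genes, whose median was 0.05. Against GS683.LALN alone, the neighbours' median was 0.79, with 34 of 38 above 0, and that of all genes was 0.05. For 6 of the 38 every PC-3-descended array lay above the TEM4-18 mean and both TEM4-18-derived arrays lay below it, as did 4.66% of all genes. This comparison shares the PC-3-descended arrays with the contrast that chose the genes and was not tested. JD1203.Lu, which carries the name JD549.Ki in its source field, had a median of 0.10 from TEM4-18, and GS689.Li and GS694.LAd, the sublines grown from JD549.Ki, had 0.66 and 0.77.

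The PC-3-descended sublines were compared among themselves, leaving TEM4-18 out of the contrast. Between the JD549.Ki-derived sublines (n = 2) and GS672.Ug (n = 1), no neighbour passed limma at an adjusted p under 0.05, and the lowest adjusted p was 0.11. Over all genes 35 passed, or 0.257%. The median log2 difference of the neighbours was -0.21, with 23 lower and 15 higher in the JD549.Ki-derived sublines, and the median over all genes was 0.01. At an unadjusted p under 0.05 there were 7 neighbours against 13.9% of all genes. IRF2BPL was higher in the JD549.Ki-derived sublines, by 0.71 ± 0.15, and the other 6 were lower: IFT43 at -0.84 ± 0.18, DLST at -0.78 ± 0.22, GPATCH2L at -0.75 ± 0.25, ISCA2 at -0.56 ± 0.17, EIF2B2 at -0.53 ± 0.19 and PNMA1 at -0.52 ± 0.19. The spread in this fit is shared by all groups, so the single array of GS672.Ug is assumed to vary like the others.

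That count depended on the TEM4-18-derived arrays, which enter only through the spread. Without GS683.LALN, 6 neighbours passed in limma with adjusted p from 0.00915 to 0.0455, and 1005 genes (7.37%) passed over all. Without JD1203.Lu the same 6 neighbours passed, with adjusted p from 0.00891 to 0.0447, and 1023 genes (7.5%) passed over all. They were ISCA2, DLST, EIF2B2, IFT43 and GPATCH2L as lower and IRF2BPL as higher.

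**Figure D4:**
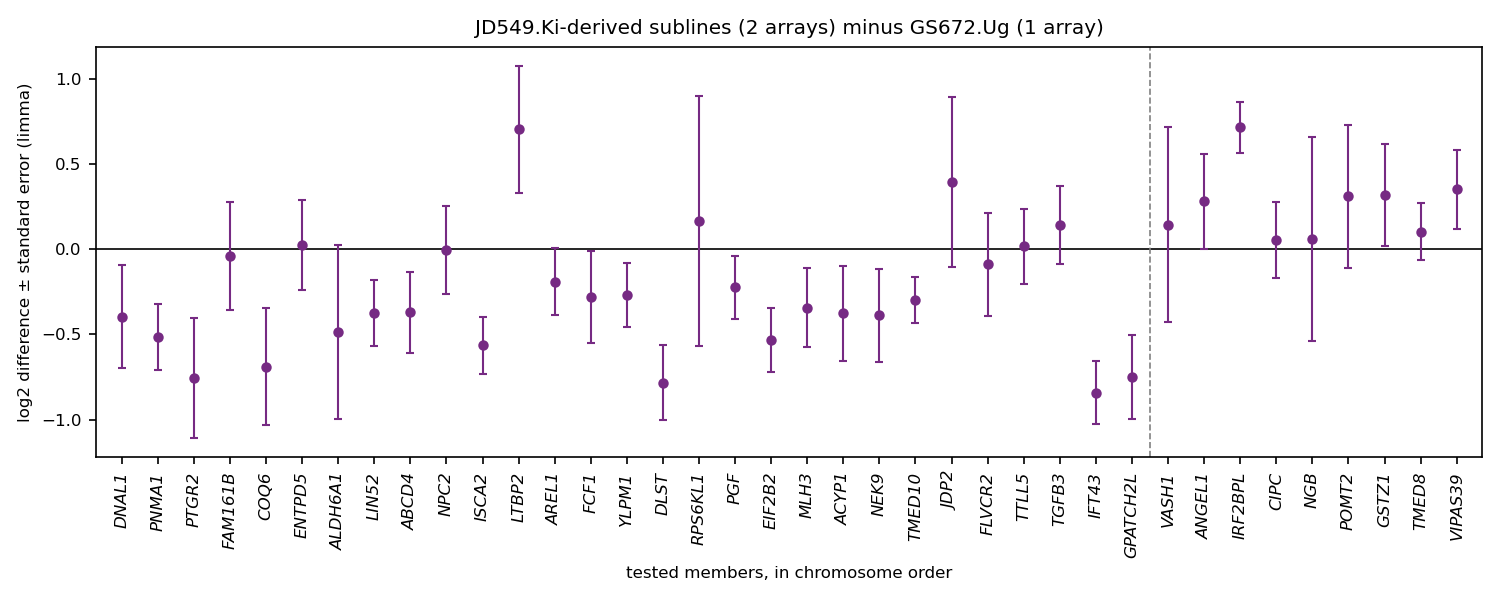
The log2 difference of the JD549.Ki-derived sublines (2 arrays) from GS672.Ug (1 array) for the 38 tested neighbours in chromosome order, with bars of 1 limma standard error. Left of the dashed line, after GPATCH2L, 23 of 29 genes lie under 0, and right of it 9 of 9 lie above 0.

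Along the chromosome the sign of this difference was not evenly mixed. Of the 29 tested neighbours from DNAL1 to GPATCH2L, 23 were lower and 6 higher in the JD549.Ki-derived sublines than in GS672.Ug, with a median of -0.34. Those 6 were ENTPD5, LTBP2, RPS6KL1, JDP2, TTLL5 and TGFB3. All 9 from VASH1 to VIPAS39 were higher, with a median of 0.28. With median centring, ENTPD5 and TTLL5 turned to lower, and the counts were 25 of 29 lower and 9 of 9 higher. Leaving out 1 array at a time, 22 to 24 were lower in the first stretch and 8 to 9 higher in the second. The second median then ran from 0.115 to 0.28. In the second stretch VASH1, CIPC, NGB, POMT2 and TMED8 differed by less than their standard errors. On further probe sets past the filter, VASH1 gave -0.29, 0.20 and 0.34, and TMED8 gave -0.015 and 0.17. Against TEM4-18, the first stretch had medians of 0.98 in GS672.Ug, 0.77 in GS694.LAd and 0.60 in GS689.Li, and the second had 0.65, 1.01 and 0.76. The split after GPATCH2L was chosen after the values were seen, so it has no test, and no single difference in it passed limma with all arrays in.

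The 42 genes are part of a longer stretch of chromosome 14. In RefSeq order (GRCh38.p14), 117 genes lie from DNAL1 to VIPAS39, and 55 of them are protein-coding, of which 13 are not among the 42. Of these 13, 7 were tested (MIDEAS, BBOF1, ZC2HC1C, ERG28, LRRC74A, ZDHHC22 and NOXRED1). They had a median log2 difference from TEM4-18 of 0.59 in the PC-3-descended sublines. In 6 of the 7, all 3 sublines lay above both TEM4-18 arrays, as in 23.8% of all genes.

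**Figure D5:**
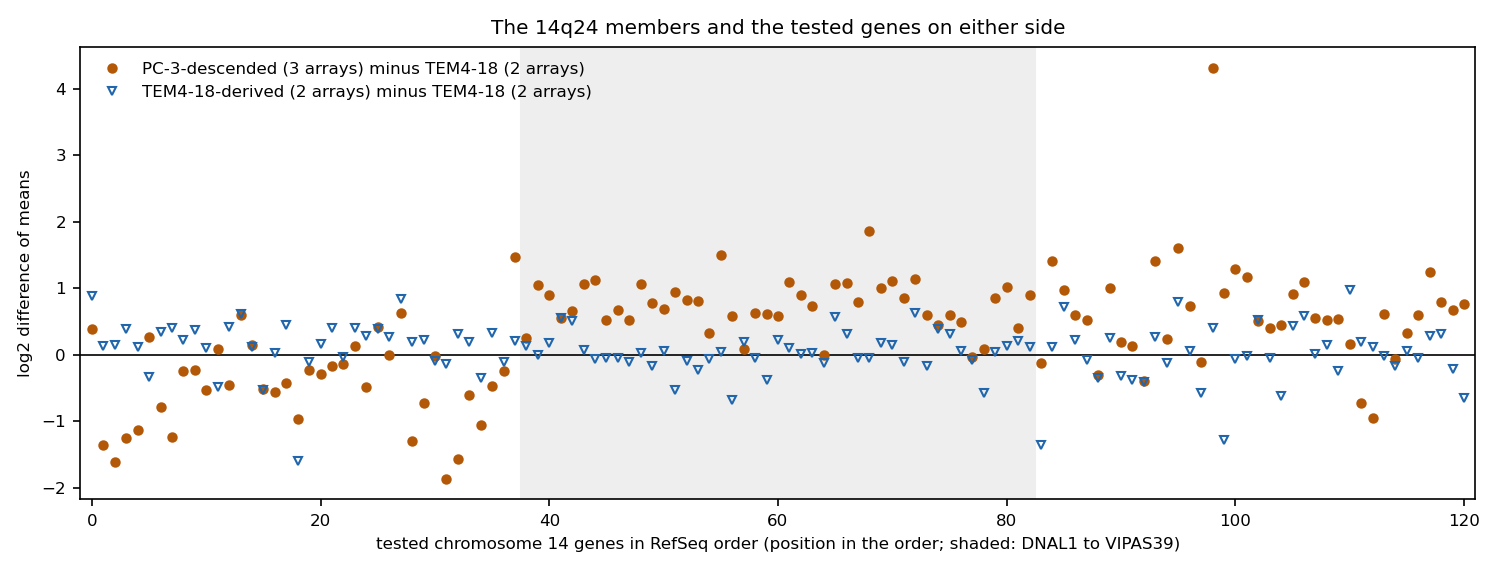
The log2 difference from TEM4-18 (vertical axis) of the PC-3-descended sublines (filled circles) and of the TEM4-18-derived sublines (open triangles) for tested chromosome 14 genes in RefSeq order, with DNAL1 to VIPAS39 shaded. The 38 tested genes before the shaded stretch have a median of -0.45 in the PC-3-descended sublines, and the 38 after it have a median of 0.57.

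On the side before DNAL1 the sign was the opposite. The 38 nearest tested genes, from FUT8-AS1 to ACOT4, had a median log2 difference of -0.45, and in 25 of them all 3 PC-3-descended sublines lay below both TEM4-18 arrays, against 2 where they lay above. Over all genes tested, 17.6% lay below in this way, and 0 of the 38 tested neighbours did. Of the 5 nearest, ZFYVE1, RBM25, NUMB and RIOX1 differed by -0.61 ± 0.14, -1.05 ± 0.18, -0.46 ± 0.26 and -0.25 ± 0.25. ACOT4, an acyl-CoA thioesterase gene next to DNAL1, instead had signals of 294 and 380 in TEM4-18, 1456, 871 and 815 in GS672.Ug, GS689.Li and GS694.LAd, 381 in GS683.LALN and 406 in JD1203.Lu, a difference of 1.47 ± 0.30.

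On the side after VIPAS39 the higher values went on. The 38 nearest tested genes there, from ISM2 to RIN3, had a median log2 difference of 0.57, with 22 above both TEM4-18 arrays in all 3 sublines (23.8% of all genes) and 2 below. Of the 5 nearest, SPTLC2 (sphingolipid synthesis), ALKBH1, SLIRP and SNW1 differed by 1.42 ± 0.25, 0.97 ± 0.16, 0.60 ± 0.10 and 0.52 ± 0.15, and ISM2 by -0.12 ± 0.47. In the TEM4-18-derived sublines the medians on the 2 sides were 0.29 and 0.11 for GS683.LALN and 0.19 and -0.05 for JD1203.Lu. These flanking genes were taken by position alone. The neighbourhood they adjoin, with its ends, was chosen on values of these arrays. A change of sign near an end is therefore a description, and no test was run on the counts of the flanking genes.

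Promoters were compared because genes whose starts lie close together on opposite strands can share one. RefSeq windows from 250 bases before to 50 after the start were found for 40 of the 42 genes, 52 windows in all. In 4 places the windows of neighbours on opposite strands overlapped. FAM161B and COQ6 differed from TEM4-18 by 0.67 and 1.07, NPC2 and ISCA2 by 0.79 and 0.70, and AREL1 and FCF1 by 0.83 and 0.81. POMT2 and GSTZ1 differed by 0.09 and 0.86, so on the brightest probe sets this pair was far apart although the starts are close. The other POMT2 probe set past the filter differed by 0.41. The stretches between the starts of the most alike and the least alike pair are shown, on the plus strand: 63 bases for AREL1 and FCF1 (chr14:74713081-74713143) and 152 bases for POMT2 and GSTZ1 (chr14:77320884-77321035).
AREL1/FCF1: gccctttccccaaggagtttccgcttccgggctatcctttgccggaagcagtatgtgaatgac
POMT2/GSTZ1: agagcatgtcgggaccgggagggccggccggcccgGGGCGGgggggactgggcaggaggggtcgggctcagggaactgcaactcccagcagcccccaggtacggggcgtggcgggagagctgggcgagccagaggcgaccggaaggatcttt

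None of the 5 motifs lies between the starts of AREL1 and FCF1, and a GC box lies between those of POMT2 and GSTZ1. The wider windows of AREL1 and FCF1 both hold TGACG, and that of FCF1 also holds GGGCGG. Over the 52 windows of the neighbours, GGGCGG was found in 40, or 76.9%, and in 45% of all 35116 promoter windows of the table. TGACG was found in 32.7% of the neighbours' windows and 24.6% of all, CCAAT in 25% and 34.6%, TATAAA in 7.69% and 11.5%, and TGANTCA in 3.85% and 7.71%. All 42 neighbours are protein-coding, and the full set of windows was not matched to them by gene type or signal. No motif contains another, overlapping windows share letters, and a match is a description of letters and not of a bound site.

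Genes that work with the neighbours but lie elsewhere in the genome were counted from 10 lists in the same contrast of PC-3-descended sublines with TEM4-18. The lists were drawn up with earlier results of these arrays known. In 7 of the lists no gene passed limma. They held 12 tested partners of FOS, JDP2 and BATF in the AP-1 and related bZIP list. The TGF-beta list held 13 ligands, binding proteins, receptors and SMAD proteins. The rest held 5 mismatch repair genes, 13 genes of oxo acid dehydrogenases and branched-chain catabolism, 6 TMED cargo receptors, 4 eIF2B subunits and 11 MuvB and DREAM genes. At an unadjusted p under 0.05 there were 13 of the 64 genes of these 7 lists, against 17.8% of all genes. Their medians ran from -0.32 for mismatch repair to 0.19 for the TMED cargo receptors. The VEGF family, its receptors and vasohibins had 9 tested genes. KDR, the main VEGF receptor, was higher in the PC-3-descended sublines by 2.51 ± 0.46 (limma, adjusted p = 0.0227). VEGFA was lower in them by 1.15 ± 0.18 (limma, adjusted p = 0.0129). KDR had signals of 998 and 763 in TEM4-18, 6380, 4792 and 4535 in GS672.Ug, GS689.Li and GS694.LAd, 318 in GS683.LALN and 1327 in JD1203.Lu. It is also an endothelial marker, and its signal is part of the sum given above. Of 11 early response genes DUSP1, a phosphatase of MAP kinases, was higher by 1.11 ± 0.21 (limma, adjusted p = 0.0255). Of 10 iron-sulfur cluster genes GLRX5 was higher by 0.73 ± 0.16 (limma, adjusted p = 0.0446). GLRX5 is a mitochondrial glutaredoxin gene that also lies on chromosome 14.

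Those 4 calls depended on the arrays used. None of the 4 passed without TEM4-18 replicate 1, without TEM4-18 replicate 2 or without GS689.Li, where their adjusted p ran from 0.0555 to 0.333, and only VEGFA passed without GS694.LAd (adjusted p = 0.0466). GLRX5 also missed the threshold with no filter (adjusted p = 0.0556) and with median centring (0.0937), and DUSP1 (0.0515) and VEGFA (0.118) did so when probe sets were averaged. Over the lists, 10 genes passed without GS672.Ug and 7 without either GS683.LALN or JD1203.Lu. In the contrasts of the TEM4-18-derived sublines with TEM4-18 and of the JD549.Ki-derived sublines with GS672.Ug, no gene of the 10 lists passed limma, and 12 and 18 of their 94 tested genes had an unadjusted p under 0.05.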

How the data were processed

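The 42 genes, the lists and the tests were chosen with earlier results of these data known. The authors deposited 1 intensity value per probe set and array, on a linear scale, made with MAS5 per the submitters' processing notes, with a version not given in the sources used here. In all, 54675 probe sets were present: 41097 name 1 gene symbol in the platform annotation, 1801 several and 11777 none, and 62 control probe sets were left out. Before log2, 46.94 was added to each value as an offset (20th percentile of the table). A filter dropped probe sets with a mean under 160.7 (40th percentile of the means), and each gene took its brightest remaining probe set, which left 13640 genes, 13622 of them in the RefSeq table (GRCh38.p14) that gave names and gene order. No detection calls were used.

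limma 3.58.1 in R 4.3.3 (lmFit, eBayes with an intensity trend, 2-sided, Benjamini-Hochberg adjusted p under 0.05 over all genes) fitted 1 model of 3 groups for the contrasts with TEM4-18 and 1 of 4 groups by parent for JD549.Ki-derived minus GS672.Ug, which could not be fitted without GS672.Ug. Errors are limma standard errors of log2 differences, and the number of arrays limits the precision. Arrays were named individually for the bZIP genes and secreted genes, the 10 largest and 5 smallest differences, the first and last gene and any gene passing a tested contrast. Alternatives changed the offset, the filter, the probe set rule, the centring, the model, the fold threshold and the arrays used. The fits were tested on simulated data with 200 changed genes of 13640. They recovered 27% of changes of 1 log2 unit and 71% of changes of 2 in TEM4-18-derived minus TEM4-18, and 7% and 45% in JD549.Ki-derived minus GS672.Ug. Both simulations drew noise from the spread left by the model of 3 groups. That spread includes differences between GS672.Ug and the JD549.Ki-derived sublines, so the shares for this contrast do not refer to the spread of the model of 4 groups. Promoter windows came from RefSeq (GRCh38.p14), and sequences missing from that table are not shown.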

Additional observations from a re-analysis of the deposited data

Results flagged for a closer look

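For 6 of the 38 tested genes, every PC-3-descended subline lay above the TEM4-18 mean and both TEM4-18-derived sublines lay below it, as they did for 4.66% of all genes. Without JD1203.Lu, whose labels conflict, the same held against GS683.LALN for 18 of the 38 and 11.3% of all genes. The log2 difference between the PC-3-descended and the TEM4-18-derived sublines was 1.47 for LTBP2, 1.04 for FCF1, 0.99 for MLH3, 0.93 for AREL1, 0.64 for LIN52 and 0.40 for YLPM1. Against TEM4-18, LTBP2 differed by 0.94 and -0.52, FCF1 by 0.81 and -0.23, MLH3 by 0.61 and -0.38, AREL1 by 0.83 and -0.10, LIN52 by 0.52 and -0.11 and YLPM1 by 0.33 and -0.06. These values are those of the brightest probe set of each gene. On the other LIN52 probe set past the filter, the TEM4-18-derived sublines were higher than TEM4-18, by 0.07. Those of FCF1 gave -0.47 and 0.54, and those of YLPM1 0.51, 0.405 and -0.045. Those of LTBP2 (-0.50) and MLH3 (-0.23 and -0.35) were also lower. For AREL1 both TEM4-18-derived signals, 2319 and 2407, lay between the duplicates, at 2790 and 2298. JD1203.Lu also lay between them for LTBP2 (679, duplicates 824 and 653) and YLPM1 (3991, duplicates 4302 and 3909). GS683.LALN did so for LIN52 (1910, duplicates 1903 and 2118). For FCF1 and MLH3 both TEM4-18-derived signals lay below both duplicates. The difference between the 2 lineages was not tested for these genes, which were selected on one side of it.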

How the results depend on the processing

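The depth of signal limits FOS, BATF and TMEM63C, which stayed under the filter, and 1 array per subline limits every count by line. No paired analysis was possible because the labels number only the TEM4-18 arrays. Under the alternatives there were 528 differences of single neighbours in PC-3-descended minus TEM4-18. Of these, 492 moved by no more than the standard deviation among the PC-3-descended sublines, which are different lines and not replicates. The sign was the other one in 9, in JDP2, PGF, POMT2 and NGB. The count of neighbours with no overlap ran from 28 to 34 (32 as reported).

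Median centring gave a median of 0.60 for the neighbours (0.79 as reported) and 7 neighbours at 2-fold in GS672.Ug and 3 each in GS694.LAd and GS689.Li (12, 10 and 7 as reported). An offset at the median of all values gave 3 in GS689.Li, 5 in GS694.LAd, 0 in GS683.LALN and 0 in JD1203.Lu. These counts take both directions: with the settings of the report they are 1 in GS683.LALN (RPS6KL1, lower) and 1 in JD1203.Lu (POMT2, lower), where the report counts higher genes only. No offset gave 2 in GS683.LALN, the 60th percentile filter gave 0 there, and the mean of the probe sets gave 0 in JD1203.Lu. At 1.5-fold the counts were 28 in GS672.Ug, 24 in GS689.Li, 27 in GS694.LAd, 5 in GS683.LALN and 4 in JD1203.Lu. For JD549.Ki-derived minus GS672.Ug the neighbours' median was -0.28 with the 60th percentile filter and -0.30 when probe sets were averaged (-0.21 as reported), and the genes passing over all were 68 with the offset at the median and 55 when probe sets were averaged (35 as reported). A model of 4 groups gave 16 genes in TEM4-18-derived minus TEM4-18 (10 as reported). The cause was not tested.

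Leaving out 1 array at a time, the genes passing over all ran from 2 to 145 in TEM4-18-derived minus TEM4-18 (145 without GS683.LALN, 2 without either TEM4-18 replicate), from 31 to 940 in PC-3-descended minus TEM4-18 (461 as reported, 31 without TEM4-18 replicate 2, 940 without GS672.Ug) and from 0 to 1023 in JD549.Ki-derived minus GS672.Ug. The neighbours passing were 0 to 6 in the last contrast and 0 throughout in TEM4-18-derived minus TEM4-18. Their median in JD549.Ki-derived minus GS672.Ug ran from -0.22 to -0.14, and the count by line in GS683.LALN from 1 to 2. The median in PC-3-descended minus TEM4-18 ran from 0.72 to 0.83.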
